A study of Mus musculus with 6 samples.

Results

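The BCL2 family survival and death genes examined here are 10 gene symbols of the deposited expression table, out of 20591. They were chosen by name: 6 anti-apoptotic genes (Bcl2, Bcl2l1, Mcl1, Bcl2a1a, Bcl2a1b and Bcl2a1d) and 4 pro-apoptotic genes (Bcl2l11, Pmaip1, Bax and Bak1). All 10 were found, and all 10 passed the filter on low values. RNA was sequenced from B cells that had been sorted from the colons of mice given DMSO, the solvent control, or lenvatinib, a kinase inhibitor that acts chiefly on the receptors for the growth factors VEGF and FGF. Each group holds 3 libraries, numbered as biological replicates. The labels give no strain, age, dose, duration or genotype for the mice, and do not say whether each library is 1 animal or a pool, so a p-value here reflects how far the libraries of a group scatter, and that scatter may be technical. By its title the study is about colitis and B cell entry into the gut; whether either group had colitis is not given in the labels.

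Proteins of the BCL2 family set whether a cell dies by the mitochondrial route of apoptosis. BAX and BAK form pores in the outer mitochondrial membrane and let cytochrome c out; BCL2, BCL-XL (from Bcl2l1), MCL1 and A1 (from the Bcl2a1 genes) hold them in check, and BH3-only proteins such as BIM (from Bcl2l11) and NOXA (from Pmaip1) bind and block the survival proteins. Mature B cells are known to depend on MCL1 and BCL2, and A1 is known as a survival gene switched on when B cells are activated.

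Values are FPKM, which are read fragments per gene length and sequencing depth, scaled between libraries by factors of 0.992 to 1.01. Changes are differences of log2(scaled FPKM + 1), lenvatinib minus DMSO, from limma, and a gene was called when its p-value, adjusted by the Benjamini-Hochberg method over the 9937 tested genes, was below 0.05. Of all tested genes 18.7 percent were called, 10.4 percent as higher and 8.21 percent as lower, and the 3 lenvatinib libraries lay wholly above or wholly below the 3 DMSO libraries for 37.1 percent. The balance of calls moved with the scaling, from 1038 higher and 816 lower here to 859 and 978 with each library scaled to its FPKM sum, 916 and 933 after quantile normalization, while unscaled FPKM gave 1181 and 721. Each library held 26635279 to 31655500 gene-assigned reads. Markers of other cells differed between the groups. Summed scaled FPKM of T cell markers was 44.8 to 48.7 in DMSO and 131 to 135 in lenvatinib libraries, with 6 of 9 tested markers higher (Cd3e 2.60 ± 0.227 and 15.8 ± 0.306; all ± values are SDs, n = 3). For natural killer and innate lymphoid cells it was 29.7 to 32.3 and 134 to 142, with 8 of 8 higher, and for colon epithelium 14.3 to 15.5 and 63.2 to 67.0, with 8 of 8 higher; in these lists a gene could be tested through its lenvatinib libraries alone. B cell identity markers summed to 4131 to 4166 in DMSO and 3520 to 3572 in lenvatinib libraries, with 15 of 18 lower and a median log2 change of −0.24. Macrophage and dendritic cell markers summed to 65.5 to 67.8 and 76.7 to 86.5, with 2 of 11 higher. Neutrophil markers summed to 6.54 to 7.67 and 11.8 to 16.9, with 2 of 3 higher. Of these Retnlg passed the filter only through its lenvatinib libraries. Of the neutrophil markers Ly6g was at 0 in every DMSO library, and 5 of the 8 in the table were below 1 everywhere. Plasma cell markers summed to 369.8 to 378 and 346 to 362, with 1 of 8 higher and 1 lower. The part of these other cells in the results below was not tested, and in sorted bulk RNA a change in the number of cells that carry a transcript and a change in transcript per cell cannot be told apart.

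Bcl2, Bcl2l1 and the 3 Bcl2a1 genes were called higher with lenvatinib, Mcl1 was not, and of the death genes Pmaip1 alone was called. Of the 6 anti-apoptotic members 5 were called higher and 0 lower, against 10.4 percent of all tested genes higher. The median log2 change of the 6 was 0.36, against 0.01 over all tested genes. Among these 6, 3 are near-identical Bcl2a1 copies that may share reads, so this count and median are not over independent genes. Of the 4 pro-apoptotic members 0 were called higher and 1, Pmaip1, lower, against 8.21 percent lower, and their median was −0.04. The number of anti-apoptotic members called higher was 2 without a filter on low values and 2 without DMSO replicate 2. It was 3 without DMSO replicate 1 or 3 or without lenvatinib replicate 1 or 2, and Pmaip1 was called lower in each of these fits.

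**Figure D1:**
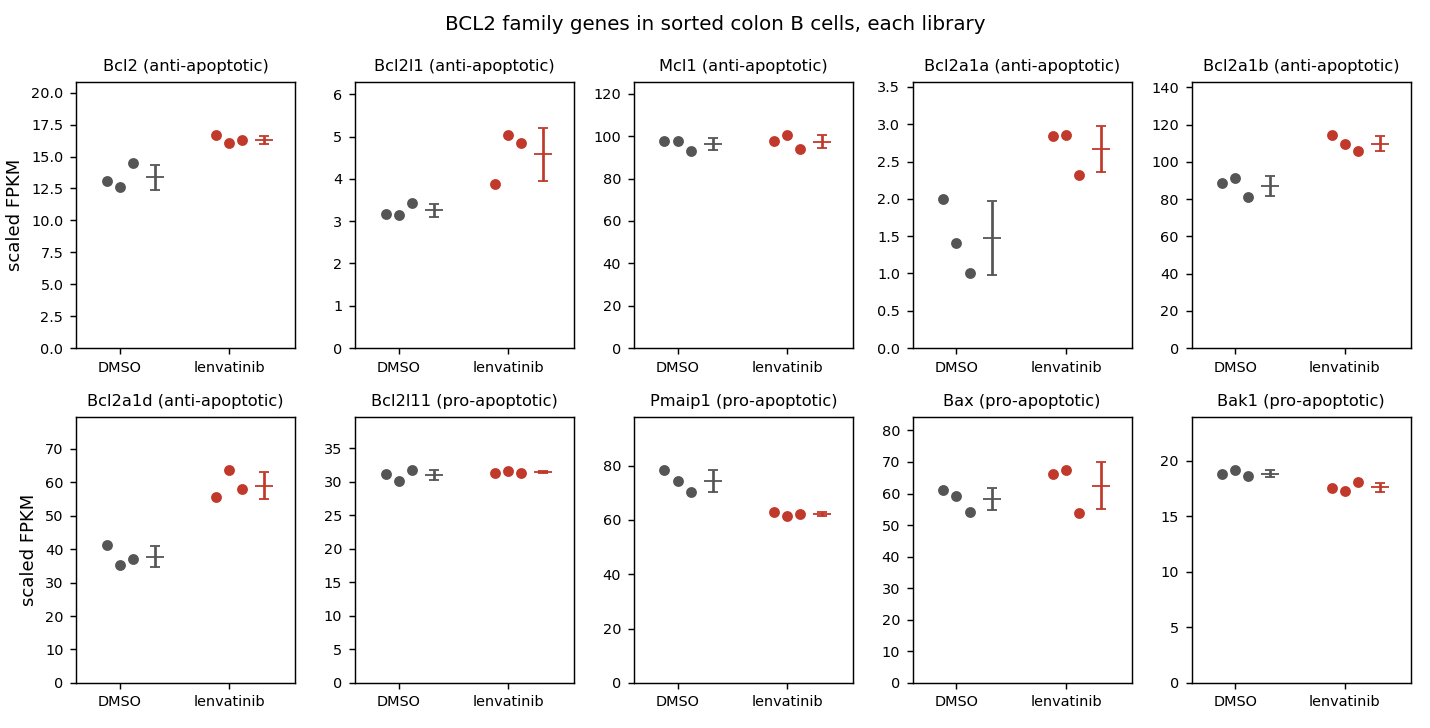
Scaled FPKM of the 10 genes in each of the 3 DMSO (grey) and 3 lenvatinib (red) libraries; every panel starts at 0 and has its own scale, and the bars beside the points show the mean and SD. Lenvatinib libraries lie above all DMSO libraries for Bcl2, Bcl2l1 and the 3 Bcl2a1 genes and below them for Pmaip1 and Bak1, and overlap them for Mcl1, Bcl2l11 and Bax.

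A1 is encoded in the mouse by several near-identical genes on chromosome 9, and 3 of them are in the table. Their sequences are shown because the copies moved together and because their likeness limits how far their reads can be told apart. The stretches below lie upstream of the annotated starts of the RefSeq genes (build GRCm38.p6, another build than the GRCm39 used by the authors). They are written 5′ to 3′ on the gene's strand, with the letters GAGGAAGT, a core bound by ETS factors such as PU.1, in capitals.
Bcl2a1a (chr9:88956726-88956863, plus strand): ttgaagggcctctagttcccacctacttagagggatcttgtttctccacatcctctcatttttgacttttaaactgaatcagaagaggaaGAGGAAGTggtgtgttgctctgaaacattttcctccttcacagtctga
Bcl2a1b (chr9:89199035-89199172, plus strand): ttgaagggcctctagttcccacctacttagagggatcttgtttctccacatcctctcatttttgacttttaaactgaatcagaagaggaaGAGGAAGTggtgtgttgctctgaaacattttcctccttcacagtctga
Bcl2a1d (chr9:88731907-88732044, minus strand): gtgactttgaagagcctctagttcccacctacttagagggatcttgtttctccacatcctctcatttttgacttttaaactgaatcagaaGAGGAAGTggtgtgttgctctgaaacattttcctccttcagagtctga
Bcl2a1a and Bcl2a1b are the same over these 138 bases, and both hold the unit GAGGAA 2 times in a row where Bcl2a1d holds it 1 time. Within the 250 bases before each start, the best local alignment of Bcl2a1a and Bcl2a1b was 99.5 percent identical over 206 aligned positions. It was 95.2 percent between Bcl2a1a and Bcl2a1d over 250 positions, and 96.1 percent between Bcl2a1b and Bcl2a1d over 206. The letters GAGGAAGT, searched on both strands and chosen after these windows had been read, stood in 2.44 percent of 32851 such windows of all genes, and among the members also in that of Bak1. The transcripts are as close, at 98.2 to 99.1 percent identity between the annotated coding transcripts. Of all windows of 100 bases along its transcript, 68.9 percent were found in no other Bcl2a1 transcript for Bcl2a1b, 56.5 percent for Bcl2a1a and 45.3 percent for Bcl2a1d. In the same order the shares were 42.4, 31.0 and 20.5 percent for windows of 50 bases. They were 85.8, 71.8 and 69.7 percent for windows of 150 bases. How the counting treated reads that match several copies is not given in the sources used here, so the split between copies is uncertain and their sum is given as well.

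Bcl2a1b, the most abundant of the copies, stood at 88.7, 91.2 and 81.1 scaled FPKM in DMSO replicates 1 to 3 and at 114, 109 and 106 in lenvatinib replicates 1 to 3. Every lenvatinib library was above every DMSO library, and the log2 change was 0.33 (SE 0.0487, limma adjusted p = 0.00142), a mean 26.3 percent higher. The second copy, Bcl2a1d, rose further, from 41.1, 35.2 and 36.9 to 55.5, 63.6 and 58.0, 0.63 higher on the log2 scale (SE 0.0679; adjusted p = 0.000248 in limma). Its mean was 56.5 percent higher, the largest change among the members called under every alternative that was run. Bcl2a1a was near the limit of what was tested, with 24 to 72 reads per library against 1789 to 2781 for Bcl2a1b. It stood at 2.00, 1.42 and 1.00 in DMSO and at 2.84, 2.85 and 2.31 in lenvatinib libraries, again without overlap (log2 change 0.58, SE 0.155, limma adjusted p = 0.0294). That call was lost without DMSO replicate 2 or 3 or lenvatinib replicate 1 or 2 (adjusted p = 0.0726, 0.0827, 0.0896 and 0.0935), when low genes were kept in (adjusted p = 0.0903) and in limma-voom on reads recovered from the FPKM values, where the log2 change was 0.91 (adjusted p = 0.120).

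Summed over the copies, A1 transcripts were at 132, 128 and 119 in DMSO and at 173, 176 and 166 in lenvatinib libraries. The sum rose by 0.44 on the log2 scale (95% interval 0.35 to 0.53, limma adjusted p = 0.000111). As a description of these libraries, the within-library log2 ratio of Bcl2a1d to Bcl2a1b was −1.09, −1.35 and −1.11 in DMSO and −1.03, −0.77 and −0.86 in lenvatinib libraries. The groups did not overlap and their means were 0.30 apart. This ratio was chosen after the values of both genes were seen and rests on an uncertain split of reads between the copies, so no test is given. Neutrophils and macrophages also express A1, and their marker sums given above were higher in the lenvatinib libraries. Of the tested markers, 2 of 11 for macrophages and dendritic cells and 2 of 3 for neutrophils were called higher and 0 lower. Over all tested genes 10.4 percent were called higher and 8.21 percent lower. The neutrophil marker Retnlg (0.0623, 0 and 1.37 in DMSO, 3.46, 2.15 and 2.32 in lenvatinib libraries) passed the filter only through its lenvatinib libraries. Its higher level was thus in part a requirement for entering the test. Cd14, called higher, stood at 11.6 ± 1.00 in DMSO and 15.5 ± 1.29 in lenvatinib libraries. S100a9, also called higher, stood at 2.94 ± 1.51 and 7.26 ± 1.35. Among those not called, Cd68 (means 7.53 and 6.51), Csf1r (1.73 and 1.83) and S100a8 (3.00 and 4.67) overlapped between the groups. The part of these cells in the rise of the Bcl2a1 genes was not tested.

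Bcl2, the founding survival gene of the family, was higher in each lenvatinib library. It stood at 13.1, 12.6 and 14.5 scaled FPKM in DMSO and at 16.6, 16.0 and 16.3 in lenvatinib libraries. The groups were apart, with a mean 21.9 percent higher and a log2 change of 0.27 (SE 0.0647, 95% interval 0.12 to 0.42, limma adjusted p = 0.0191). The call was lost without DMSO replicate 1 or 2 or lenvatinib replicate 1 (adjusted p = 0.0598, 0.0649 and 0.0618) and when low genes were kept in (adjusted p = 0.0527), at log2 changes of 0.23 to 0.27. T cells and natural killer cells are also known to express Bcl2, and the part of the rise in their markers was not tested.

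Bcl2l1, which encodes BCL-XL, was low but also higher, at 3.18, 3.16 and 3.42 in DMSO and 3.87, 5.02 and 4.85 in lenvatinib libraries. Lenvatinib replicate 1 was the lowest of its group and the closest to the DMSO libraries, and the groups did not overlap. The log2 change was 0.39 (SE 0.104, 95% interval 0.15 to 0.62, limma adjusted p = 0.0316). This call held without lenvatinib replicate 1 (adjusted p = 0.0165) and was lost without any of the other 5 libraries (adjusted p from 0.0603 to 0.105), when low genes were kept in (adjusted p = 0.0789) and with quantile normalization (adjusted p = 0.0511).

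Mcl1, the short-lived survival protein on which B cells depend, did not pass the test. It stood at 97.8, 97.9 and 92.8 in DMSO and at 97.8, 100.3 and 94.0 in lenvatinib libraries. The groups overlapped, replicate 3 was the lowest in both, and the 95% interval of the log2 change ran from −0.07 to 0.10 (limma adjusted p = 0.791). With 22533 to 27199 reads per library, Mcl1 was the member with the most reads. Mcl1 was the most abundant survival gene in DMSO libraries and Bcl2a1b the second, and in lenvatinib libraries the order was the other way round, with the 2 genes not overlapping in either group. FPKM levels of different genes are set by the gene lengths that the authors used as well as by transcript number, so this order holds for their annotation.

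Among the BH3-only genes, Pmaip1 was lower with lenvatinib and Bcl2l11 did not pass the test. Pmaip1, which encodes NOXA, a partner that takes MCL1 and A1 out of action, stood at 78.3, 74.3 and 70.3 in DMSO and at 62.8, 61.5 and 62.2 in lenvatinib libraries. Every lenvatinib library was below every DMSO library, and the lenvatinib libraries lay closer together than the DMSO libraries did. Pmaip1 fell by 0.25 on the log2 scale (SE 0.0440, 95% interval −0.35 to −0.15, limma adjusted p = 0.00401), a mean of 62.2 ± 0.639 against 74.3 ± 4.01. It was called lower under each of the 16 alternatives. The fall was of the size of the median over the B cell identity markers, −0.24, and any link between them was not tested.

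Bcl2l11, which encodes BIM, the BH3-only protein that binds every survival member of the family, stood at 31.2, 30.2 and 31.7 in DMSO and 31.3, 31.7 and 31.3 in lenvatinib libraries. The groups overlapped, and with 9863 to 11966 reads per library the 95% interval of the log2 change ran from −0.08 to 0.12 (limma adjusted p = 0.808). FOXO transcription factors are known activators of Bcl2l11, and the FOXO core GTAAACA is in capitals in the first 100 bases of the RefSeq window before 1 of its 2 annotated starts, shown because both FOXO genes below were lower.
Bcl2l11 (chr2:128125788-128125887, plus strand, GRCm38.p6): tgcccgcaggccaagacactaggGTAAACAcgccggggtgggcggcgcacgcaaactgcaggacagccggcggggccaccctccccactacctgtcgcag
Searched on both strands, GTAAACA stood in 3.17 percent of the 32851 windows and in no other window of a member; windows were found for 9 of the 10 members, not for Pmaip1. The kappaB motif stood in 1 of the 3 Bcl2l1 windows and in no other member's, against 7.25 percent of all windows, and the p53 motif in none, against 0.00913 percent. A match is a run of letters and not a shown binding site.

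The pore-forming effectors did not pass the test. Bax stood at 61.2, 59.3 and 54.3 in DMSO and at 66.3, 67.4 and 53.8 in lenvatinib libraries. Lenvatinib replicates 1 and 2 were above all DMSO libraries and lenvatinib replicate 3 was below all of them, so that the 95% interval of the log2 change, −0.09 to 0.28, was the widest among the pro-apoptotic members (limma adjusted p = 0.484). Leaving out 1 library moved the log2 change of Bax by over 1.5 times in either direction. It was 0.20 without lenvatinib replicate 3 (limma adjusted p = 0.0506), 0.049 without lenvatinib replicate 1, 0.037 without lenvatinib replicate 2 and 0.043 without DMSO replicate 3 (limma adjusted p = 0.784, 0.828 and 0.806). Bak1 stood at 18.8, 19.1 and 18.6 in DMSO and at 17.5, 17.2 and 18.04 in lenvatinib libraries, without overlap. The difference was small, with a log2 change of −0.09 (95% interval −0.21 to 0.02, limma adjusted p = 0.248). Groups that do not overlap are common here, at 18.2 percent of tested genes with lenvatinib below.

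**Figure D2:**
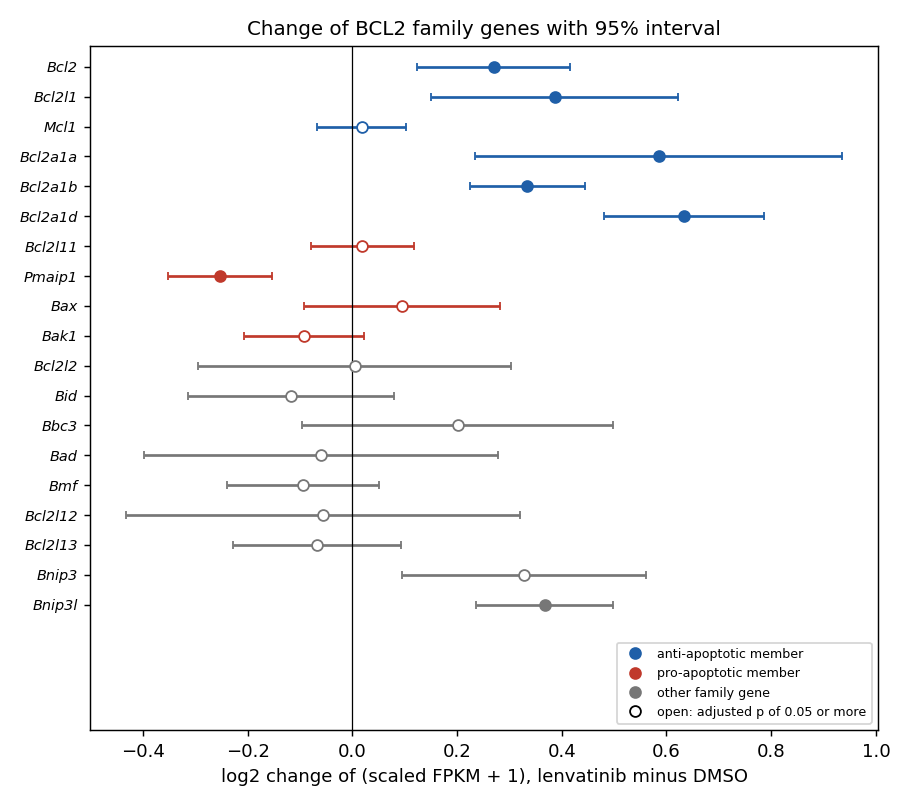
Log2 change of scaled FPKM + 1, lenvatinib minus DMSO, with its 95% interval for the 10 members and the 9 other BCL2 family genes that were tested; open points had an adjusted p of 0.05 or more. Bcl2, Bcl2l1 and the Bcl2a1 genes lie between 0.27 and 0.63, Pmaip1 at −0.25, and of the other family genes only Bnip3l, at 0.37, is filled.

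Ranked by mean scaled FPKM in DMSO libraries, the members ran from Mcl1 (96.2 ± 2.90) through Bcl2a1b (87.0 ± 5.26), Pmaip1 (74.3 ± 4.01), Bax (58.3 ± 3.59), Bcl2a1d (37.7 ± 3.07), Bcl2l11 (31.0 ± 0.782), Bak1 (18.8 ± 0.278), Bcl2 (13.4 ± 0.971) and Bcl2l1 (3.25 ± 0.149) to Bcl2a1a (1.47 ± 0.499). No neighbours in that order overlapped between libraries. With lenvatinib Bcl2a1b (109.8 ± 4.18) led Mcl1 (97.4 ± 3.15), and Bax (62.5 ± 7.53), Pmaip1 (62.2 ± 0.639) and Bcl2a1d (59.1 ± 4.17) overlapped one another. Bcl2, at 16.3 ± 0.306, came close to Bak1, at 17.6 ± 0.400, without overlap.

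Levels were also summed over each of the 2 classes. Scaled FPKM summed over the 6 anti-apoptotic members was 246, 241 and 229.7 in DMSO and 291, 297 and 281 in lenvatinib libraries. The sum over the 4 pro-apoptotic members was 189, 183 and 175 against 178, 178 and 165. The anti-apoptotic sum was thus 1.297, 1.32 and 1.31 times the pro-apoptotic sum in DMSO libraries and 1.63, 1.67 and 1.70 times in lenvatinib libraries. These ratios describe the libraries and carry no test, since they follow from the choice of members. Mcl1 and Bcl2a1b together made up 70.5 to 78.3 percent of the first sum, and Pmaip1 and Bax 70.2 to 73.6 percent of the second. Most of the rise in the first sum lay in the Bcl2a1 copies, which together stood at 126 ± 6.55 in DMSO and 172 ± 4.90 in lenvatinib libraries. Mcl1 stood at 96.2 ± 2.90 and 97.4 ± 3.15. In the second sum Pmaip1 was lower, at 74.3 ± 4.01 and 62.2 ± 0.639, and Bax did not pass the test, at 58.3 ± 3.59 and 62.5 ± 7.53.

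A survival gene and a death gene whose proteins are known to bind were also compared within each library, for 5 pairs. The log2 ratio of Mcl1 to Pmaip1 was 0.32, 0.39 and 0.40 in DMSO and 0.63, 0.70 and 0.59 in lenvatinib libraries, a difference of 0.27. For Bcl2 to Bcl2l11 it was −1.19, −1.20 and −1.08 against −0.87, −0.94 and −0.90, a difference of 0.25. Both ratios were higher in each lenvatinib library than in any DMSO library, the first through the fall of Pmaip1 and the second through the rise of Bcl2. The ratio of Bcl2l1 to Bak1 was −2.22 ± 0.0675 in DMSO and −1.74 ± 0.169 in lenvatinib libraries, and that of Mcl1 to Bak1 was 2.29 ± 0.0299 and 2.40 ± 0.0773. Neither overlapped, but for Mcl1 to Bak1 the groups all but touched, with DMSO replicate 1 at 2.3195 and lenvatinib replicate 3 at 2.3198, and its adjusted p rose to 0.25 with scaling to the FPKM sum and with quantile normalization. These 4 differences had the smallest p the design allows (two-sided exact permutation p = 0.1, 0.125 adjusted over the 5 pairs), so none can pass a threshold of 0.05. The ratio of Bcl2 to Bax overlapped between the groups, at −2.04 ± 0.179 and −1.87 ± 0.178 (exact permutation p = 0.3); replicate 3, with the lowest Bax, gave the highest ratio in both groups. The difference of 0.18 was 0.075 without lenvatinib replicate 3 and 0.28 without DMSO replicate 3.

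**Figure D3:**
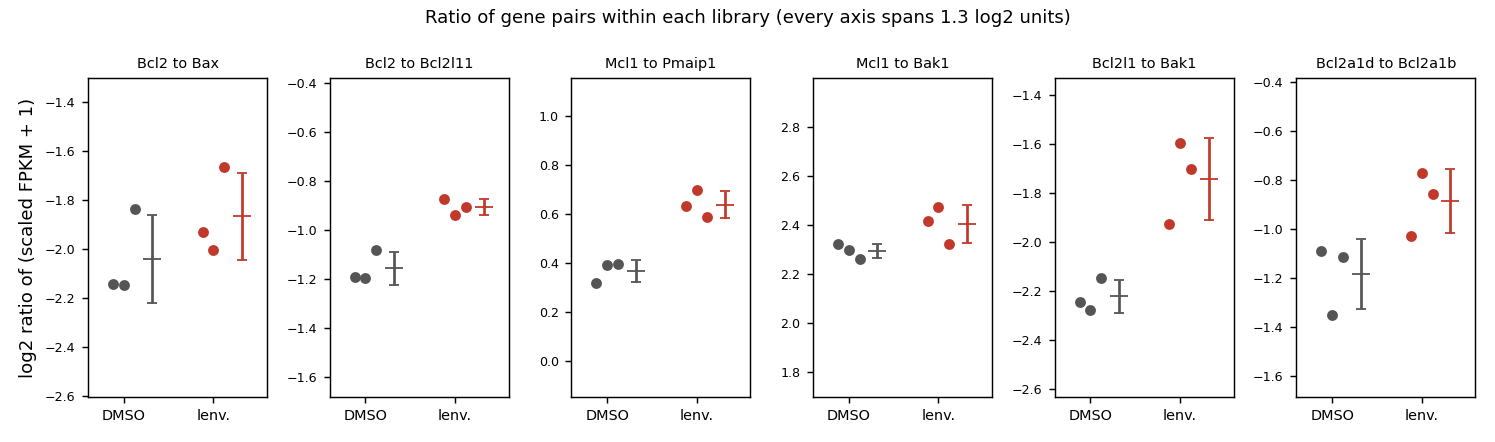
Log2 ratio of 2 genes within each library, computed from scaled FPKM + 1, for the 5 survival-to-death pairs and, at the right, for Bcl2a1d to Bcl2a1b; points are libraries, bars the mean and SD, and every axis spans the same number of log2 units. The groups overlap for Bcl2 to Bax, all but touch for Mcl1 to Bak1 and are apart in the other panels.

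Among the rest of the family Bnip3l was called. Of 16 further BCL2 family genes in the list, 13 were in the table and 9 were tested. Of these 9, 1 was higher and 0 lower, against 10.4 and 8.21 percent of all tested genes. Their median log2 change was −0.06. Bnip3l encodes a mitochondrial protein of the BNIP3 kind known from mitophagy and hypoxia, and stood at 19.7, 21.6 and 19.7 in DMSO and 25.4, 27.6 and 26.6 in lenvatinib libraries (log2 change 0.37, SE 0.0578, limma adjusted p = 0.00222). Its relative Bnip3 lay above the DMSO range in all 3 lenvatinib libraries, at 6.43 to 6.79 against 4.42 to 6.05, and did not pass (limma adjusted p = 0.0564). Bbc3, which encodes the BH3-only protein PUMA, was at 5.72 ± 1.14 and 6.69 ± 0.942, with a 95% interval of the log2 change from −0.10 to 0.50. Bmf, a BH3-only gene known in B cells, was at 18.1 ± 1.303 and 16.9 ± 0.569, with an interval from −0.24 to 0.05. Bid, Bad and the survival gene Bcl2l2, named after their values were seen, also overlapped between the groups, with adjusted p of 0.399, 0.827 and 0.986 in limma; the intervals were wide, from −0.40 to 0.28 for Bad and from −0.29 to 0.30 for Bcl2l2. Bok, Bik, Bcl2l14 and Bcl2l15 stayed below 1 in every library and were not tested.

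Downstream of the mitochondria, most genes of the apoptosome and the caspases did not pass the test, as was so for most tested genes. Of 19 tested, 2 were higher and 1 lower, against 10.4 and 8.21 percent of all tested genes. The median log2 change was −0.02. The gene that fell was Birc3, which encodes the inhibitor of apoptosis cIAP2 and is abundant here, from 153, 157 and 160.4 in DMSO to 134, 133 and 132 in lenvatinib libraries (log2 change −0.23, SE 0.0294, limma adjusted p = 0.000627). Endog, a mitochondrial nuclease, rose from 2.08 ± 0.199 to 3.82 ± 0.844 (limma adjusted p = 0.0113, and 0.0537 in limma-voom), and Vdac1, a channel of the outer membrane, from 14.2 ± 0.563 to 17.1 ± 0.476 (limma adjusted p = 0.0140, a call lost without DMSO replicate 2 or lenvatinib replicate 2). Birc6, a large inhibitor of apoptosis, was at 19.9 ± 0.267 and 17.9 ± 0.981 and did not pass.

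In the death receptor route 3 of 10 tested genes were higher and 1 lower, against 10.4 and 8.21 percent of all tested genes. The receptor gene Fas rose from 7.62, 6.53 and 8.08 in DMSO to 10.1, 11.6 and 11.01 in lenvatinib libraries (log2 change 0.50, SE 0.0886, limma adjusted p = 0.00421). Its ligand gene Fasl, known from T and natural killer cells, was at 0.978, 0.549 and 0.930 in DMSO and at 3.66, 4.71 and 3.06 in lenvatinib libraries; it passed the filter through its lenvatinib libraries alone, so its higher level was in part a requirement for entering the test. The T cell and natural killer marker sums given above were higher in the same libraries, and their part in this was not tested. Tnfrsf1a, a receptor for TNF, was at 2.11 ± 0.779 and 4.30 ± 0.583 (limma adjusted p = 0.0160), a call lost without lenvatinib replicate 1 or 3 and when low genes were kept in. Casp8, the caspase that starts this route, fell from 28.0, 29.0 and 30.8 to 22.3, 24.2 and 24.1 (log2 change −0.30, SE 0.0560, limma adjusted p = 0.00536).

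Bax and Pmaip1 are known targets of p53. In a list of Trp53 itself and other known targets, 12 genes were tested. There 1 was higher and 2 lower, against 10.4 and 8.21 percent of all tested genes, and the median log2 change was 0.03. Btg2, an anti-proliferative gene, fell from 226 ± 1.70 to 175 ± 6.97 (limma adjusted p = 8.94e-05) and Mdm2, which encodes the ligase that degrades p53, from 17.97 ± 0.200 to 15.4 ± 0.724 (limma adjusted p = 0.0315). The call of Mdm2 was lost without lenvatinib replicate 1 or 2 or any 1 of the 3 DMSO libraries, when low genes were kept in, and with a term for replicate number. The cyclin gene Ccng1 rose from 14.7 ± 0.706 to 18.4 ± 0.110 (limma adjusted p = 0.00572). Trp53 itself was at 34.4 ± 0.423 and 39.3 ± 3.00 and did not pass (limma adjusted p = 0.0560).

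Of 14 tested genes known to act on the level or the binding of BIM, MCL1 or BCL2, 4 were higher and 3 lower. The shares over all tested genes were 10.4 percent higher and 8.21 percent lower. The median log2 change of the 14 was 0.03. Foxo1, a FOXO factor of B cells, fell from 96.9, 96.6 and 96.2 in DMSO to 74.6, 70.9 and 79.9 in lenvatinib libraries (log2 change −0.36, SE 0.0446, limma adjusted p = 0.000574). Its relative Foxo3, named after its value was seen, stood at 18.4 ± 0.757 and 15.7 ± 0.663 (limma adjusted p = 0.0304), and lost its call without any 1 library other than DMSO replicate 3, when low genes were kept in, and without trend and robust moderation. Tnfrsf13c, the gene of the BAFF receptor through which B cells receive a survival signal, fell from 109 ± 2.18 to 94.0 ± 2.38 (limma adjusted p = 0.00250). Pim2, a survival kinase gene, rose from 18.7, 19.1 and 20.9 to 26.8, 29.9 and 25.2 (log2 change 0.46, SE 0.0714, limma adjusted p = 0.00199). The heat shock gene Hspa1b rose from 1222 ± 17.3 to 1514 ± 32.03 (limma adjusted p = 3.59e-05); a near-identical neighbour can share its reads. Dynll1, whose product binds BIM, and Il7r, a receptor of lymphocytes that supports Bcl2, were also higher, at log2 changes of 0.34 and 0.42; both were picked with their values in view. The call of Il7r was lost without DMSO replicate 1 or lenvatinib replicate 2.

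**Figure D4:**
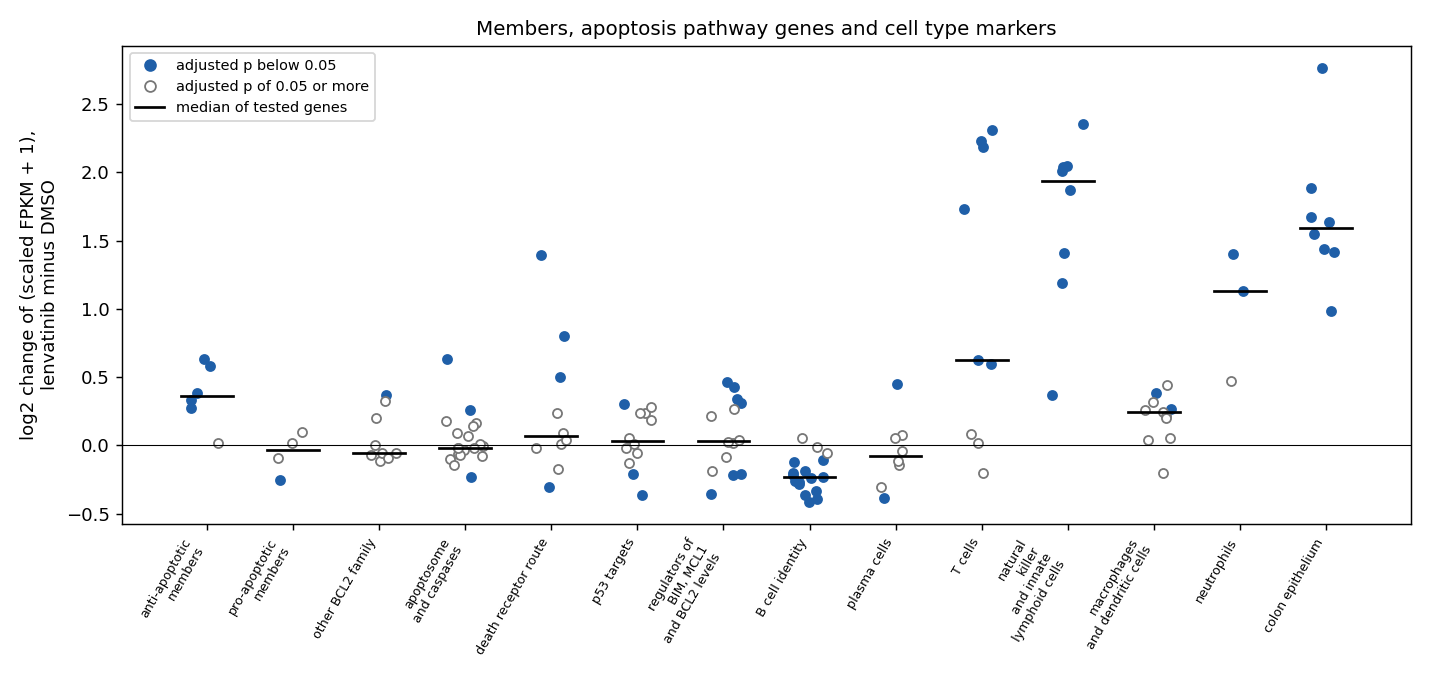
Log2 change, lenvatinib minus DMSO, of every tested gene in the 2 classes of members, in 5 lists of apoptosis genes and in 7 lists of cell type markers; filled points had an adjusted p below 0.05 and lines are medians. The median is 0.36 for the anti-apoptotic members, between −0.06 and 0.06 for the apoptosis lists, −0.24 for B cell identity and 1.94 for natural killer and innate lymphoid cells.

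Other genes ran close to the members over the 6 libraries. Likeness was measured as the root mean square difference between profiles of log2(scaled FPKM + 1), each centred on its own mean. The 3 genes nearest to Bcl2a1d, the survival gene with the smallest p, were the glycolytic enzyme gene Eno1 (0.0598), the HSP90 cochaperone gene Ahsa1 (0.0635) and Itm2c (0.0640), with log2 changes of 0.64, 0.60 and 0.64. The nearest to Pmaip1, the death gene with the smallest p, were Tmem71 (0.0176), Chst10 (0.0193) and the phosphodiesterase gene Pde4b (0.0239), with log2 changes of −0.23, −0.27 and −0.23. With 2 groups of 3 libraries, such likeness mostly reflects a group difference of the same size.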

How the data were processed

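The authors deposited FPKM values, 1 column per library; HTSeq and the build GRCm39 are named per the submitters' processing notes. The aligner, annotation, strand use and treatment of reads matching several genes are not given in the sources used here. FPKM is not a count, so tests ran on a log scale: values were scaled by median-of-ratios factors, a gene was kept where 3 or more of the 6 libraries reached a scaled FPKM of 1, and log2(scaled FPKM + 1) was fitted in limma 3.58.1 (R 4.3.3) with trend and robust moderation, treatment as the only term, two-sided. Reads were recovered from the FPKM steps as whole numbers (tolerance 1e-06) for 19709 of 19715 genes with any value, and give the depths and 1 alternative, limma-voom. The fit was tested on simulated data with 200 changed genes. It recovered 55 percent of them at a log2 change of 0.3, 91.5 percent at 0.5 and 97.5 percent at 1. False calls numbered 3, 4 and 19. The simulation changed far fewer genes than the 1854 called in the data, and took the spread of each gene from a smoothed trend. Its rates thus need not hold for the data, where a change near 0.3 could be missed. Ratios of gene pairs were compared by exact permutation. The members and lists were chosen with earlier results of these data known, so they are no independent support. Named were all members and, per list, up to 4 tested genes with the smallest p. For cell markers at most 2 such genes were named per list, and for some lists none. Others are said to have been named after their values were seen. Promoter windows are from RefSeq (GRCm38.p6) and Bcl2a1 transcripts from GENCODE (GRCm38). Alternatives were other pseudocounts, filters and scalings, no trend and robust moderation, a replicate term, limma-voom and leaving out each library.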

Additional observations from a re-analysis of the deposited data

How the results depend on the processing

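Of the 10 members, Bcl2a1b, Bcl2a1d and Pmaip1 kept direction and call under all 16 alternatives, as did the Bcl2a1 sum, and Bax and Bak1 stayed uncalled with the same sign. Without a filter on low values the changes of Bcl2 (0.27), Bcl2l1 (0.39) and Bcl2a1a (0.58) were no longer called; more genes enter the adjustment there. Bcl2l1 was not called with quantile normalization (0.35), nor Bcl2a1a in limma-voom (0.91). Mcl1 and Bcl2l11, never called, changed sign: −0.0091 and −0.0072 with each library scaled to its FPKM sum, and −0.0015 for Mcl1 with quantile normalization. Leaving out 1 library each gave log2 changes of 0.23 to 0.32 for Bcl2, 0.33 to 0.48 for Bcl2l1, 0.44 to 0.73 for Bcl2a1a, −0.0091 to 0.043 for Mcl1 and −0.0008 to 0.033 for Bcl2l11. The cause of these moves was not tested. A mean filter of 5 left Bcl2l1 and Bcl2a1a untested. The number of genes called overall was 1854, 1264 without a filter and 2498 in limma-voom. Those called higher numbered 1038. With 1 library left out they numbered from 673, without lenvatinib replicate 2, to 827, without DMSO replicate 2. The 5 pair ratios kept their direction, but without 1 library Bcl2 to Bax ran from 0.075 to 0.28, and Mcl1 to Bak1 had an adjusted p of 0.25 with scaling to the FPKM sum (0.11) and quantile normalization (0.099). Bax ran from 0.037 to 0.20 without 1 library.

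No pairing by replicate number was seen over the tested genes as a whole. Deviations from the group means of same-numbered libraries correlated at −0.0067, 0.0065 and −0.0053. A correlation over all genes cannot tell whether the libraries were paired for some of them. With the replicate block 1542 genes were called, and the calls of all 10 members were as without it (Bcl2 0.27, adjusted p = 0.0365; Bcl2l1 0.39, adjusted p = 0.0486). Depth limits Bcl2a1a most, at 24 to 72 reads.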

Other observations

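A few sets of values may merit a second look, given without explanation. Birc3 and the Bcl2a1 genes are both known as targets of NF-kB, yet Birc3 fell by 0.23 on the log2 scale while the Bcl2a1 sum rose by 0.44. The fall of Birc3 was of the size of the median over the B cell identity markers, −0.24, and any link between them was not tested. Foxo1, a known activator of Bcl2l11, fell by 0.36, while the 95% interval of the change of Bcl2l11 was −0.08 to 0.12. Fas rose by 0.50 while Casp8, on the same route, fell by 0.30. No test linked the genes of these pairs, which were picked after their values were seen.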
